A study of Arabidopsis thaliana with 48 samples.

Results

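AT1G63750, which encodes a receptor of the TIR-NBS-LRR class, and AT1G30700 and AT1G26380, which encode oxidases of the berberine bridge enzyme type, were followed across 16 groups of Arabidopsis thaliana arrays. Each gene had 1 probe set, so that 3 of the 22746 probe sets that were not controls were described in full. The genes were chosen by their measured low levels in the gpa1 mutant, and the contrast behind that choice was not recorded. Every difference that involves gpa1 arrays, and every mutant minus wild-type difference, is therefore given as a description with no test.

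The genotypes were gpa1 (allele gpa1-4), agb1 (allele agb1-2), the double mutant agb1gpa1, and the wild type of the Columbia ecotype, Col-0 (WT), against which the mutants were set. Each genotype was measured in guard cell samples and in leaves, with the hormone abscisic acid (ABA, 50 µM, 3 h) or with its solvent ethanol (EtOH), in 3 arrays per group and 48 arrays in all. The plants were 5 weeks old and were grown with 8 h of light a day. Each array was a pool of plants, with 300 leaves from between 60 and 70 plants behind a guard cell array and 10 leaves from 3 or 4 plants behind a leaf array.

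GPA1 and AGB1 are the alpha and beta subunits of the plant heterotrimeric G protein, a membrane-bound switch with known roles in ABA responses of guard cells and in defence against microbes. Receptors of the TIR-NBS-LRR class sit inside the cell, sense molecules or actions of a pathogen and switch on defence, often with death of the infected cell, through a relay that includes EDS1 and SAG101. Berberine bridge enzymes are flavin-dependent oxidases named after a step of alkaloid synthesis in the poppy family. In Arabidopsis they form a large family, and AT1G26380 is known for a step in the synthesis of indolic defence compounds that are made during bacterial attack. All 3 genes lie on chromosome 1, and both oxidase genes are followed directly by another member of their family, AT1G26390 and AT1G30710.

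Array medians over all probe sets lay between 5.05 and 5.38 on the log2 scale, and each array correlated with the mean of its other 2 replicates at r of 0.973 to 0.995. Listed genes with a probe set tied to them alone are called measured here. The 2 measured guard cell markers were FMA and AT1G22690. With EtOH they averaged 12.39 to 12.77 in gpa1 guard cell samples and 12.03 to 12.64 in WT guard cell samples. Over all leaf arrays with EtOH they averaged 7.06 to 8.60. Mesophyll markers were not absent from the guard cell samples. The 4 measured ones averaged 10.06 to 10.17 in gpa1 and 9.17 to 10.24 in WT guard cell samples with EtOH, against 11.78 to 12.42 in WT leaves with EtOH. SWEET11, the 1 measured vascular marker, lay at 4.02 to 4.25 in gpa1 and 4.10 to 5.33 in WT guard cell samples with EtOH and at 10.74 to 11.36 in leaves with EtOH. In bulk samples of this kind, fewer cells of a type and less RNA per cell cannot be told apart. The source field of the labels calls the EtOH samples untreated, and the labels differ on whether leaves or isolated guard cells were held in ABA.

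The receptor gene AT1G63750 stood at its lowest levels in gpa1, in both tissues and with both treatments. Its gpa1 means, at 3.83 to 4.89, lay below all array medians, at percentiles 28.7 to 46.1 of all probe sets. How far background signal sets these low readings was not tested. With EtOH, the 3 guard cell arrays read 3.84, 3.62 and 4.02 in gpa1, 5.76, 5.56 and 5.56 in agb1gpa1 and 6.00, 5.48 and 6.28 in agb1, against 5.96, 5.59 and 5.97 in WT (log2). All 3 gpa1 arrays lay below all 9 others, while the arrays of the other 3 genotypes overlapped. With ABA, the guard cell arrays read 4.28, 3.98 and 4.15 in gpa1, 5.90, 5.95 and 5.49 in agb1gpa1 and 6.25, 5.83 and 6.00 in agb1, against 5.81, 5.67 and 5.73 in WT. The 3 gpa1 arrays again lay below all others.

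The gpa1 minus WT difference of AT1G63750 in guard cells was -2.02 with EtOH and -1.60 with ABA on the log2 scale. These were the differences at rank 15 and rank 36 from the lowest of 22746 probe sets. Of all probe sets, 5.84% lay without overlap lower in gpa1 than in WT guard cells with EtOH, and 5.65% with ABA. The agb1gpa1 double mutant, which carries the same gpa1 allele, did not show this: its differences from WT in guard cells were -0.22 with EtOH and 0.04 with ABA, with overlapping arrays. The gpa1 minus agb1gpa1 difference was -1.80 with EtOH and -1.64 with ABA, without overlap in either, as for 5.55% and 4.58% of all probe sets in the lower direction.

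In leaves with EtOH the means of AT1G63750 stood in the order gpa1, agb1gpa1, agb1 and WT, lowest first. With EtOH the leaf arrays read 4.58, 4.42 and 5.65 in gpa1, 5.44, 6.15 and 5.72 in agb1gpa1 and 6.52, 6.64 and 5.30 in agb1, against 6.57, 7.26 and 6.83 in WT. The gpa1 and agb1gpa1 arrays all lay below the 3 WT arrays, whereas agb1 overlapped with WT and gpa1 overlapped with agb1gpa1. The gpa1 minus WT difference was -2.00, at rank 13 from the lowest, with 8.11% of all probe sets lower without overlap in that comparison, and the agb1gpa1 minus WT difference was -1.12, with 12.9% lower without overlap. The 4 measured mesophyll markers moved with this order in part. They averaged 10.99 to 11.42 in gpa1, 10.89 to 11.24 in agb1gpa1 and 11.36 to 11.84 in agb1 leaves with EtOH, against 11.78 to 12.42 in WT leaves, so that the gpa1 and agb1gpa1 arrays lay below all WT arrays. Their median difference from WT was -0.93 in gpa1, with 3 of 4 lower without overlap, -1.06 in agb1gpa1, with 2 of 4, and -0.59 in agb1, with none. The 2 guard cell markers had a median difference of -0.73 in gpa1 leaves. The part of these markers in the leaf levels of AT1G63750 was not tested.

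With ABA the leaf arrays of AT1G63750 read 4.32, 3.99 and 4.01 in gpa1, 5.04, 4.41 and 4.93 in agb1gpa1 and 4.79, 5.23 and 4.58 in agb1, against 5.24, 4.73 and 5.12 in WT. The gpa1 minus WT difference was then -0.93, again without overlap, in a comparison in which 14.3% of all probe sets were lower without overlap. In the same comparison the mesophyll markers had a median difference of 0.29, with none lower without overlap. The 2 guard cell markers had a median difference of -0.43, with 1 of them lower without overlap. The part of these markers was not tested. The agb1 and agb1gpa1 leaves with ABA overlapped with WT and differed from it by -0.17 and -0.23.

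**Figure D1:**
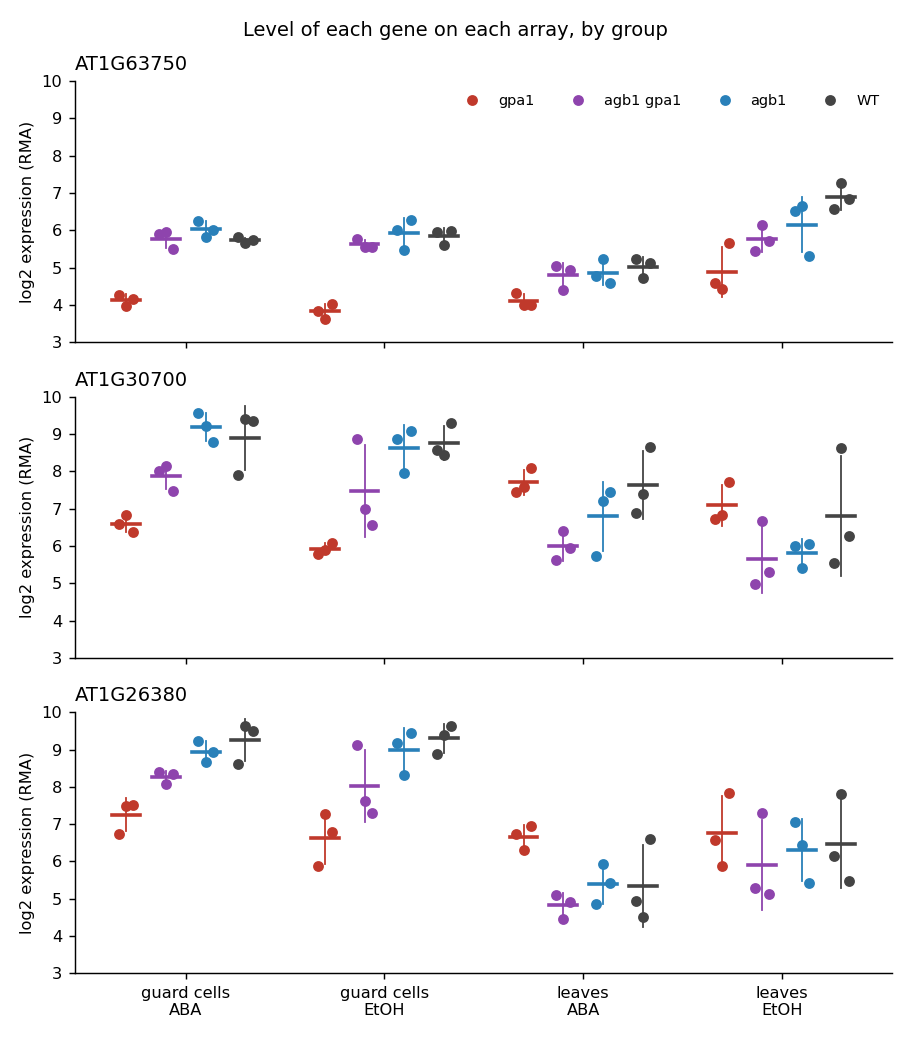
Log2 level of each gene in every array, by genotype, tissue and treatment; points are single arrays, horizontal bars are means of 3 arrays and vertical lines are 1 SD to either side. The gpa1 guard cell points of all 3 genes lie below the WT guard cell points, and in leaves the gpa1 points lie below the WT points only for AT1G63750.

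The oxidase genes AT1G30700 and AT1G26380 were low in gpa1 guard cells and not in gpa1 leaves. In guard cells with EtOH, AT1G30700 read 5.79, 5.89 and 6.09 in gpa1, 8.87, 6.98 and 6.57 in agb1gpa1 and 8.87, 7.96 and 9.07 in agb1, against 8.56, 8.43 and 9.29 in WT. AT1G26380 read 5.87, 7.27 and 6.78 in gpa1, 9.12, 7.62 and 7.31 in agb1gpa1 and 9.17, 8.30 and 9.45 in agb1, against 8.87, 9.38 and 9.64 in WT. For both genes all gpa1 arrays lay below all arrays of the other genotypes, and the agb1gpa1 arrays spread from just above gpa1 up to the level of WT. The array that stood high was replicate 1 of agb1gpa1 for both genes.

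With ABA, AT1G30700 in guard cells read 6.58, 6.83 and 6.38 in gpa1, 8.01, 8.13 and 7.47 in agb1gpa1 and 9.55, 9.21 and 8.79 in agb1, against 7.90, 9.41 and 9.35 in WT. AT1G26380 read 6.74, 7.50 and 7.51 in gpa1, 8.39, 8.08 and 8.34 in agb1gpa1 and 9.22, 8.67 and 8.94 in agb1, against 8.60, 9.63 and 9.51 in WT. Here the 3 agb1gpa1 arrays were closer together, above gpa1 and below agb1 for both genes.

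The gpa1 minus WT difference in guard cells was -2.84 with EtOH and -2.29 with ABA for AT1G30700, at rank 3 and rank 9 from the lowest of all probe sets. For AT1G26380 it was -2.66 and -2.00, at rank 7 and rank 17. None of these 4 comparisons had overlapping arrays, as for 5.84% of all probe sets in the lower direction with EtOH and 5.65% with ABA. The agb1 minus WT differences in guard cells were -0.12 and 0.30 for AT1G30700 and -0.32 and -0.30 for AT1G26380 with EtOH and with ABA, all with overlap. The agb1gpa1 minus WT differences lay between those of the single mutants, at -1.29 and -1.01 for AT1G30700 and at -1.28 and -0.98 for AT1G26380. Of these 4, the last was the one without overlap, in a comparison in which 5.16% of all probe sets were lower without overlap. The gpa1 minus agb1gpa1 differences were -1.55 and -1.27 for AT1G30700 and -1.37 and -1.02 for AT1G26380, all without overlap. Of all probe sets, 5.55% with EtOH and 4.58% with ABA lay lower without overlap there.

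In leaves with EtOH, AT1G30700 read 6.71, 6.84 and 7.70 in gpa1, 4.97, 6.66 and 5.29 in agb1gpa1 and 6.01, 5.40 and 6.05 in agb1, against 5.54, 8.61 and 6.26 in WT. AT1G26380 read 6.56, 5.88 and 7.84 in gpa1, 5.29, 7.30 and 5.13 in agb1gpa1 and 7.05, 6.44 and 5.42 in agb1, against 6.13, 7.80 and 5.48 in WT. The gpa1 arrays lay within the range of WT arrays for AT1G30700 and nearly so for AT1G26380, and replicate 2 stood high in WT for both genes. The gpa1 minus WT differences were 0.28 and 0.29, with overlap.

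In leaves with ABA, AT1G30700 read 7.45, 7.59 and 8.08 in gpa1, 5.62, 6.41 and 5.94 in agb1gpa1 and 5.72, 7.20 and 7.44 in agb1, against 6.88, 7.38 and 8.65 in WT. AT1G26380 read 6.74, 6.31 and 6.94 in gpa1, 5.09, 4.46 and 4.91 in agb1gpa1 and 4.86, 5.94 and 5.42 in agb1, against 4.93, 4.52 and 6.60 in WT. In these leaves the gpa1 arrays of both genes lay above all agb1gpa1 arrays, the opposite order to guard cells. The gpa1 minus agb1gpa1 difference was 1.72 for AT1G30700 and 1.84 for AT1G26380, in a comparison in which 8.4% of all probe sets were higher without overlap. The gpa1 minus WT differences were 0.07 and 1.32, with overlap. For AT1G30700 the agb1gpa1 minus WT difference was -1.65, at rank 17 from the lowest of all probe sets. For AT1G26380 it was -0.52, with overlap.

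**Figure D2:**
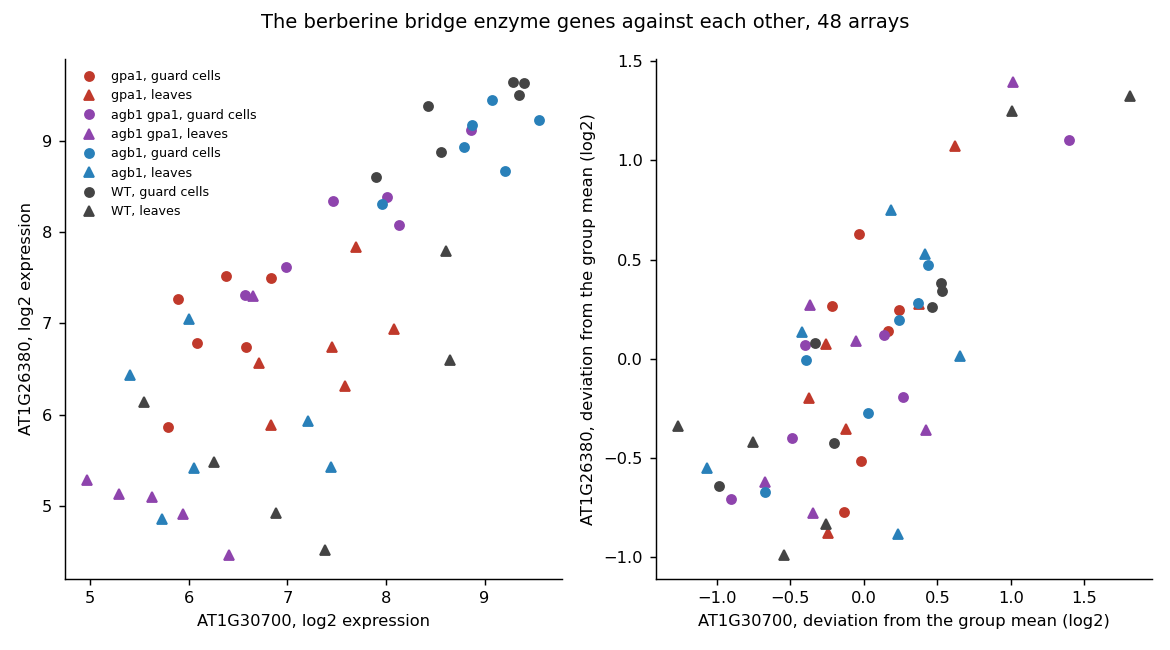
AT1G26380 against AT1G30700 in the 48 arrays, as log2 levels on the left and as deviations from each group's mean on the right; circles are guard cells, triangles are leaves and colours are genotypes. On the left the gpa1 circles lie at the low end of the guard cell arrays (r = 0.940 over the 24 guard cell arrays), and on the right the points still rise together (r = 0.743 over 48 arrays).

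Both oxidase genes moved together across arrays. Their log2 values correlated at r = 0.786 over the 48 arrays, 0.940 over the 24 guard cell arrays and 0.492 over the 24 leaf arrays. After subtraction of each group's mean, r was 0.743 over the 48 arrays, so that a replicate with a high reading of one gene tended to have a high reading of the other. AT1G63750 correlated with AT1G30700 at r = 0.857 in guard cells and -0.238 in leaves, and with AT1G26380 at 0.815 and 0.338. After subtraction of group means these values were 0.461 in guard cells and 0.302 in leaves with AT1G30700, and 0.232 and 0.727 with AT1G26380, so that the sign turned in leaves for AT1G30700. These points share arrays and groups, and the guard cell values include the gpa1 arrays by which the genes were picked.

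The effect of losing GPA1 was tested without gpa1 or WT arrays, as agb1gpa1 minus agb1, where both groups lack AGB1. Whether these arrays also entered the choice of the genes is not known. None of the 3 genes changed at an adjusted p under 0.05 (limma, Benjamini-Hochberg over 22746 probe sets) in leaves or guard cells, with EtOH or ABA. The share of all probe sets called was 0.0044% in leaves with EtOH, 0.0044% in leaves with ABA, 0.0132% in guard cells with EtOH and 0.0132% in guard cells with ABA. At an unadjusted p under 0.05 the numbers of genes among the 3 were 0, 0, 2 and 1 in that order, and 880, 503, 492 and 850 over all probe sets. Few probe sets of any kind were thus called in this test.

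In guard cells with EtOH, AT1G30700 averaged 7.47 ± 1.23 in agb1gpa1 and 8.63 ± 0.59 in agb1 (SD, n = 3 each), a difference of -1.16 with a 95% interval of -2.14 to -0.18 (limma adjusted p = 1). With ABA it averaged 7.87 ± 0.36 in agb1gpa1 and 9.18 ± 0.38 in agb1, a difference of -1.31 with an interval of -2.30 to -0.33, and the arrays did not overlap. AT1G26380 differed by -0.96 with EtOH (interval -1.85 to -0.07) and by -0.68 with ABA (interval -1.56 to 0.21). With ABA its arrays did not overlap either, as for 2.77% of all probe sets in the lower direction. For AT1G63750 the differences were -0.30 with EtOH (interval -0.67 to 0.08) and -0.25 with ABA (interval -0.62 to 0.13). Leaving out single arrays with EtOH moved the differences over -1.86 to -0.71 for AT1G30700, -1.51 to -0.61 for AT1G26380 and -0.51 to -0.12 for AT1G63750, with none called. With ABA they moved over -1.51 to -1.11, -0.81 to -0.54 and -0.34 to -0.10, again with none called.

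In leaves the agb1gpa1 minus agb1 differences were -0.38 and -0.07 for AT1G63750, -0.18 and -0.80 for AT1G30700 and -0.40 and -0.58 for AT1G26380 with EtOH and with ABA. All 6 intervals included 0. With EtOH and ABA arrays of guard cells averaged, a comparison added after the values were seen, AT1G30700 averaged 7.67 in agb1gpa1 and 8.91 in agb1 (n = 6 each). Its difference was -1.24 with an interval of -1.93 to -0.54, which was rank 45 by p of all probe sets and was not called (limma adjusted p = 0.697). In the same comparison AT1G26380 differed by -0.82 (limma adjusted p = 0.929) and AT1G63750 by -0.27 (limma adjusted p = 0.929).

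Whether the agb1gpa1 minus agb1 difference depended on ABA or on the tissue was tested directly. The change of the difference with ABA was 0.31 in leaves and 0.05 in guard cells for AT1G63750, -0.62 and -0.15 for AT1G30700, and -0.18 and 0.28 for AT1G26380. The leaf minus guard cell change with EtOH was -0.09 for AT1G63750, 0.98 for AT1G30700 and 0.56 for AT1G26380. No gene among the 3 and 0 of all probe sets were called by limma in these 3 tests, with 165, 310 and 678 probe sets at an unadjusted p under 0.05.

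**Figure D3:**
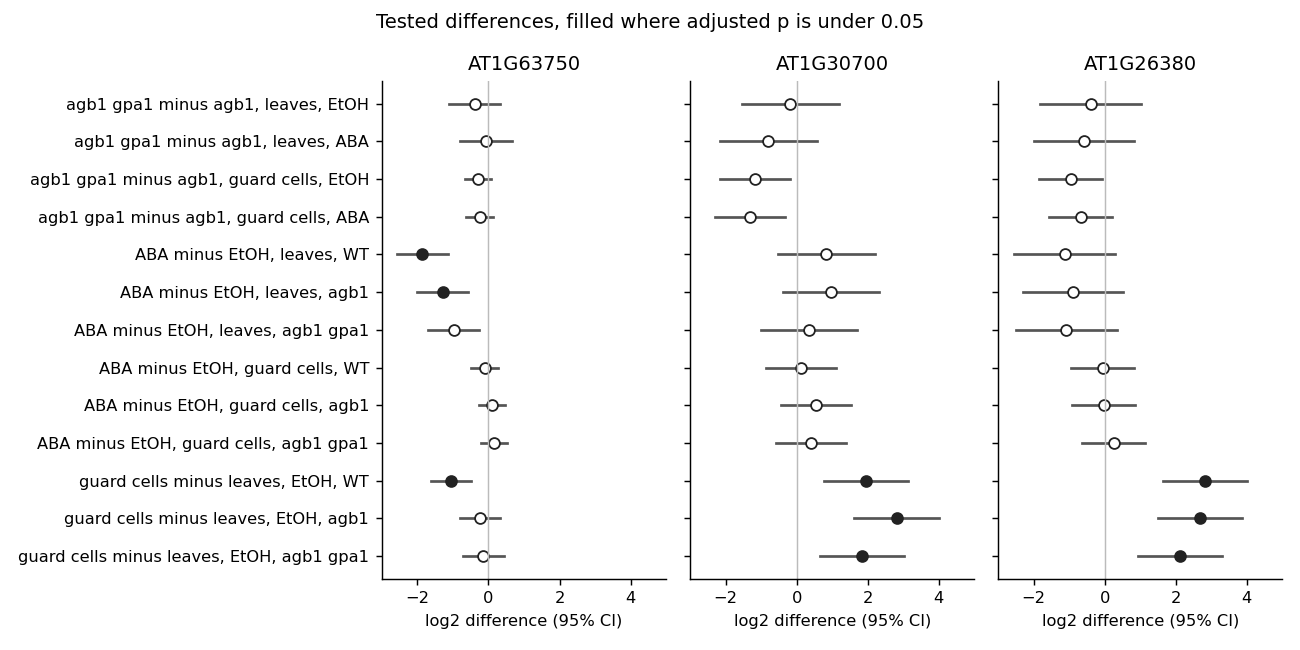
Tested log2 differences of the 3 genes with 95% intervals from limma; filled points were called at an adjusted p under 0.05 and open points were not. The agb1gpa1 minus agb1 points are all open, and the filled points lie among the guard cell minus leaf and the ABA minus EtOH comparisons.

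Outside gpa1, both oxidase genes were higher in guard cells than in leaves with EtOH. AT1G26380 averaged 9.30 ± 0.39 in guard cells and 6.47 ± 1.19 in leaves of WT, 8.97 ± 0.60 and 6.30 ± 0.82 in agb1, and 8.02 ± 0.97 and 5.91 ± 1.21 in agb1gpa1 (SD, n = 3 each). The differences of 2.83, 2.67 and 2.11, or 7.09-fold, 6.37-fold and 4.32-fold, were all called (limma adjusted p = 0.000117, 0.000274 and 0.00289). The WT arrays used here also stood in the gpa1 minus WT comparison, and the agb1 and agb1gpa1 arrays did not. The gpa1 minus WT difference in guard cells may have been part of the choice. Genes chosen for it are more likely to read high in the WT guard cell arrays. The WT tests of both oxidase genes are thus not fully independent of the choice. In the 3 comparisons 20%, 19.6% and 22.7% of all probe sets were called higher in guard cells.

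AT1G30700 was higher in guard cells by 1.95 in WT, 2.82 in agb1 and 1.83 in agb1gpa1 (limma adjusted p = 0.00619, 0.000151 and 0.00963), or 3.87-fold, 7.04-fold and 3.56-fold. The WT difference has the limit given above for the shared WT guard cell arrays. The arrays of the tissues overlapped in WT and agb1gpa1. Without leaf replicate 1 of WT the WT difference was 1.32 and was not called. Without guard cell replicate 1 or leaf replicate 1 of agb1gpa1 the differences there were 1.14 and 1.50 and were not called. Both differences also lost their call when only the arrays compared were fitted (adjusted p = 0.0997 in WT and 0.0597 in agb1gpa1). In gpa1, where no test was made, the guard cell minus leaf difference was -1.16 for AT1G30700, without overlap, and -0.12 for AT1G26380. With ABA the gpa1 differences were -1.11, without overlap, and 0.58. In gpa1, 24.9% of all probe sets with EtOH and 25.8% with ABA were lower in guard cells without overlap.

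AT1G63750 was lower in guard cells than in leaves of WT, at 5.84 ± 0.21 and 6.89 ± 0.35, a difference of -1.05 (SE 0.279, limma adjusted p = 0.00221), where 22.2% of all probe sets were called lower. The WT leaf arrays here are those of the gpa1 minus WT comparison in leaves, so this test is not fully independent of the choice either. The differences of -0.23 in agb1 and -0.14 in agb1gpa1 were not called, where 20.1% and 21.4% of all probe sets were called lower. Of the 37 measured genes of the TIR-NBS-LRR and TIR-NBS class, 16 were lower and 4 higher in WT guard cells, with a median of -0.44 against 0.04 for all probe sets. When each array was centred on its median, 13 were lower and 9 higher, and the median of all probe sets became 0.25. Of the 22 measured berberine bridge genes, 4 were higher, AT1G26380 and AT1G30700 among them, and 6 were lower. In that comparison 20% of all probe sets were called higher and 22.2% lower. Centring gave 8 higher and 4 lower, and leaving out guard cell replicate 1 or 3 or leaf replicate 1 of WT left 3 lower. With only the arrays compared, 2 were higher and 4 lower.

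AT4G20860 (-2.27) and AT5G44380 (-1.89), both berberine bridge genes, were lower in WT guard cells (limma adjusted p = 0.000723 and 6.7e-06), opposite to AT1G26380 and AT1G30700. SAG101, a partner of EDS1 in the relay below TIR receptors and the 1 measured gene of 8 on that list, was lower by 2.19 in WT guard cells (limma adjusted p = 9.95e-07) and was called lower in agb1 and agb1gpa1 as well. SWEET11 was lower by 6.32 in the same comparison and all 4 mesophyll markers were called lower, with a median of -2.26. The part of cell composition in the difference between tissues was not tested.

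AT1G63750 fell with ABA in WT and agb1 leaves. In WT leaves the gene averaged 5.03 ± 0.27 with ABA and 6.89 ± 0.35 with EtOH (SD, n = 3 each), with no overlap, as for 24.5% of all probe sets in the lower direction. The difference of -1.86 (SE 0.343), or 3.62-fold, was called (limma adjusted p = 0.000372) in a comparison in which 21.8% of all probe sets were called lower and 16.9% higher. It kept its call when any single WT leaf array was left out, at -2.02 to -1.67. The WT leaf arrays with EtOH also stood in the gpa1 minus WT difference of -2.00, which may have been part of the choice, and a gene chosen for that difference is more likely to read high in them, so this test is not fully independent of the choice. In agb1 leaves the gene averaged 4.86 ± 0.33 with ABA and 6.15 ± 0.74 with EtOH, a difference of -1.29 (limma adjusted p = 0.0151) with 7.59% of all probe sets called lower.

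The agb1 call was lost when the fit used only the 6 arrays compared (adjusted p = 0.119). It was also lost without EtOH replicate 1 (-1.11), EtOH replicate 2 (-1.04) or ABA replicate 3 (-1.14). In agb1gpa1 leaves the difference of -0.97 did not pass the test (limma adjusted p = 0.0838), although its arrays did not overlap, as for 13.2% of all probe sets in the lower direction. In gpa1 leaves the gene was already low with EtOH, and its ABA minus EtOH difference was -0.78, without overlap, as for 18.3% of all probe sets in the lower direction. The gpa1 leaves with EtOH, at 4.89 ± 0.67, stood between agb1 leaves and WT leaves with ABA in the order of means.

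In guard cells the ABA minus EtOH difference of AT1G63750 was -0.11 in WT (interval -0.48 to 0.27), 0.10 in agb1 and 0.15 in agb1gpa1, none called (limma adjusted p = 0.745, 0.820 and 0.645). The leaf response of WT minus its guard cell response was -1.75 (SE 0.394, interval -2.55 to -0.95), and this difference was called (limma adjusted p = 0.00132), where 12.3% of all probe sets were called lower. It rests on the same WT leaf arrays with EtOH, with the same limit. The 4 mesophyll markers were also called lower with ABA in WT leaves, with a median difference of -2.00, and 1 of the 4 was called lower in WT guard cells. Their part in the response of AT1G63750 was not tested.

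The oxidase genes had no called response to ABA in either tissue of WT, agb1 or agb1gpa1. In leaves the ABA minus EtOH difference of AT1G30700 was 0.83 in WT, 0.97 in agb1 and 0.35 in agb1gpa1, and that of AT1G26380 was -1.12, -0.90 and -1.08. The sign thus differed between the 2 genes in all 3 genotypes, but the replicates spread widely and the 95% intervals of all 6 included 0. Without EtOH replicate 2 of WT, the AT1G30700 difference was 1.74 and was called (limma adjusted p = 0.0243). In guard cells the differences of AT1G30700 were 0.12, 0.55 and 0.40 and those of AT1G26380 were -0.05, -0.03 and 0.25 in WT, agb1 and agb1gpa1. The shares of all probe sets called were 38.7%, 14.5% and 10.2% in leaves and 20.2%, 15.7% and 16.2% in guard cells. In gpa1 guard cells AT1G30700 was 0.68 higher with ABA, without overlap, as for 15% of all probe sets, and AT1G26380 was 0.61 higher with overlap.

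**Figure D4:**
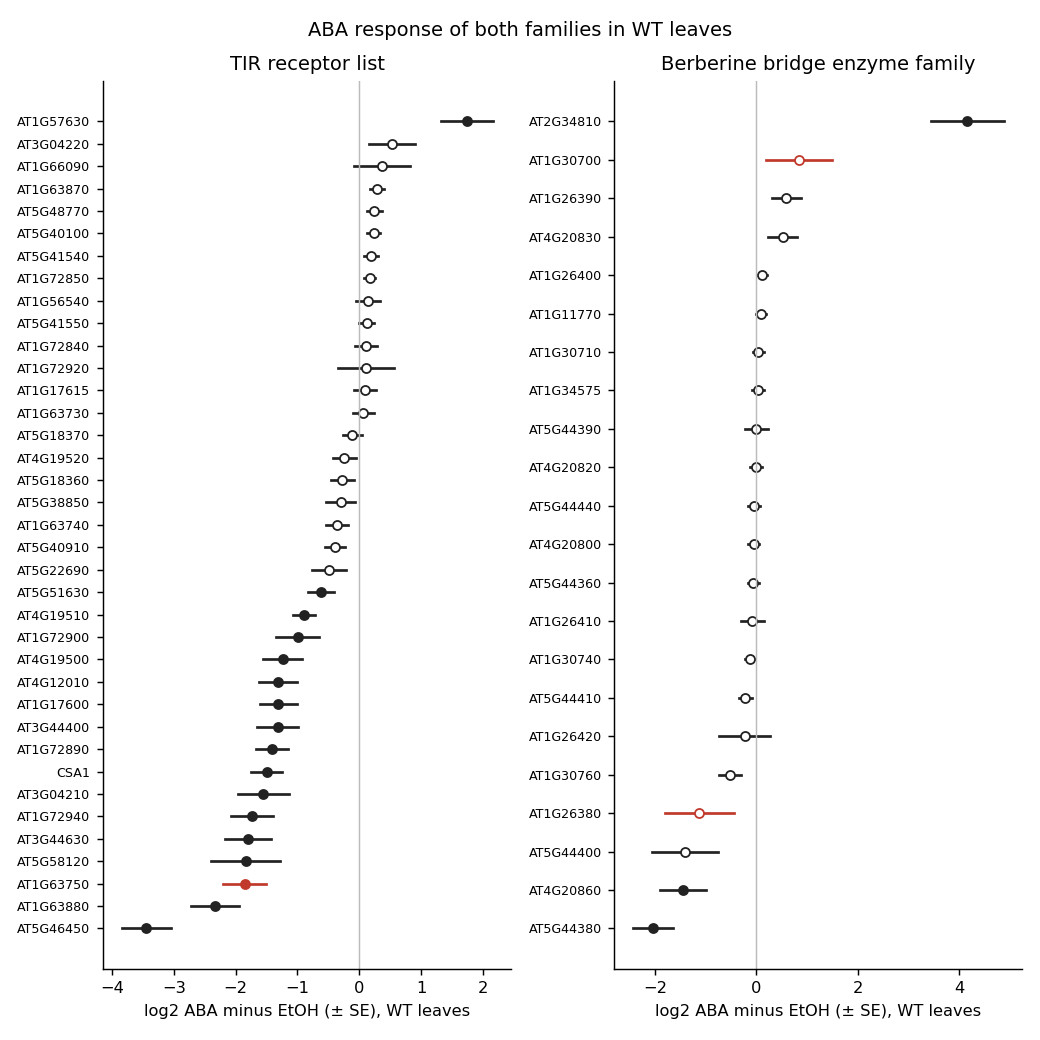
ABA minus EtOH log2 differences in WT leaves for the measured genes of the TIR-NBS-LRR and TIR-NBS list and of the berberine bridge list. Lines are 1 SE to either side and the 3 described genes are in red. Filled points were called at an adjusted p under 0.05 by limma. Most called receptor genes lie below 0, while AT2G34810 lies far above the other berberine bridge genes at 4.16.

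The response of AT1G63750 was set beside the rest of its class. In WT leaves 16 of the 37 measured receptor genes, AT1G63750 among them, were lower with ABA, 1 was higher and 20 did not pass. The median of the 37 was -0.36 against 0.05 for all probe sets, of which 21.8% were called lower and 16.9% higher. Without AT1G63750, 15 of 36 were lower and 1 higher, with a median of -0.33. With arrays centred on their medians, 14 of the 37 were lower and 7 higher, beside 3821 lower and 9231 higher over all probe sets. The median of the 37 was then -0.11 and that of all probe sets was 0.30. The largest changes among the called genes were those of AT5G46450 at -3.45, AT1G63880 at -2.33, AT1G63750 itself and AT5G58120 at -1.84 (limma adjusted p = 4.56e-06, 0.000161, 0.000372 and 0.014), all members of the TIR class. The call of AT5G58120 was lost without EtOH replicate 3. The number higher was 2 without EtOH replicate 3. AT1G57630 was the 1 gene that was higher, by 1.74, and was not called when only the WT leaf arrays were fitted (adjusted p = 0.0646).

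In agb1 leaves 10 receptor genes, AT1G63750 among them, were lower with ABA and none was higher, where 7.59% of all probe sets were called lower. In agb1gpa1 leaves 3 were lower, where 5.07% of all probe sets were called lower. The agb1 count was 5 without EtOH replicate 1, 6 without EtOH replicate 2, 15 without EtOH replicate 3 and 3 when only the agb1 leaf arrays were fitted, and the agb1gpa1 count was 1 when only its leaf arrays were fitted. In guard cells 5 were lower in WT, 4 in agb1 and 4 in agb1gpa1, beside 11.6%, 8.44% and 8.99% of all probe sets called lower. AT5G46450 and AT1G63880 were lower with ABA in WT guard cells as well, at -2.42 and -1.88 (limma adjusted p = 1.07e-07 and 4.69e-05), where AT1G63750 was not called. SAG101 was lower in WT leaves by 1.40 (limma adjusted p = 0.004), and its guard cell difference of -0.30 was not called.

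Among the 22 measured berberine bridge genes, 1 was higher, 2 were lower and 19 did not pass in WT leaves with ABA, beside 16.9% of all probe sets called higher and 21.8% called lower. Centring of the arrays gave 5 higher and 2 lower, and 3 were higher without EtOH replicate 2 and 2 without ABA replicate 1. AT2G34810 averaged 10.71 ± 0.42 with ABA and 6.55 ± 1.45 with EtOH in WT leaves, a difference of 4.16 (limma adjusted p = 0.000216). It was also higher with ABA in WT guard cells, by 3.00, where 8.55% of all probe sets were called higher. AT5G44380 was lower by 2.04 and AT4G20860 by 1.44 in WT leaves (limma adjusted p = 0.000519 and 0.0156), and the call of AT4G20860 was lost without EtOH replicate 2. In WT guard cells AT1G26390, the gene next to AT1G26380, was 1.48 higher with ABA (limma adjusted p = 0.0162). That call was lost without EtOH replicate 1, EtOH replicate 3 or ABA replicate 2 and when only the WT guard cell arrays were fitted.

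The relatives of the 3 genes were set beside them in gpa1 guard cells. Of the 20 other measured berberine bridge genes, 3 lay without overlap lower in gpa1 than in WT guard cells with EtOH and none higher, with a median difference of -0.10 against 0.02 for all probe sets. Of all probe sets 5.84% lay lower and 6.22% higher without overlap in that comparison. The lowest of the 20 was AT1G26420 at -0.84, and it was also the lowest of them in agb1gpa1 minus WT, at -0.915. Of the 36 other receptor genes, 5 lay lower and none higher, with a median of -0.08, and the lowest was AT1G66090 at -1.50. The lower receptor readings were not particular to gpa1. In agb1gpa1 minus WT guard cells with EtOH, 6 of the 36 lay lower and none higher, with a median of -0.12. The berberine bridge genes had 2 lower and 2 higher there. The share of all probe sets without overlap is not given for that comparison. The gpa1 minus agb1gpa1 difference of AT1G66090 was -1.21. In gpa1 minus WT guard cells with ABA, 5 berberine bridge genes lay lower and 1 higher, the lowest being AT1G26390 at -1.48. It was also the lowest of the 20 in agb1gpa1 minus WT with ABA, at -1.23. In gpa1 minus WT with ABA, 3 receptor genes lay lower and 2 higher, where 5.65% of all probe sets lay lower and 4.15% higher. In agb1gpa1 minus agb1 no measured gene of either list was called by limma in any of the 4 comparisons. Without the 3 described genes, 0, 0, 1 and 0 of the 20 berberine bridge genes had an unadjusted limma p under 0.05. For the 36 receptor genes the numbers were 3, 0, 1 and 1. The order is leaves with EtOH, leaves with ABA, guard cells with EtOH and guard cells with ABA. Over all probe sets the shares in that order were 3.87%, 2.21%, 2.16% and 3.74%.

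Over all 16 groups, the mean level of AT1G63750 spanned 3.06 on the log2 scale. The lowest 3 were gpa1 guard cells with EtOH at 3.83 ± 0.20, gpa1 leaves with ABA at 4.10 ± 0.19 and gpa1 guard cells with ABA at 4.14 ± 0.15. Next came the leaves of agb1gpa1 and agb1 with ABA, gpa1 leaves with EtOH and WT leaves with ABA, at 4.80 to 5.03. The guard cells of agb1gpa1, agb1 and WT with either treatment and agb1gpa1 leaves with EtOH followed at 5.63 to 6.02, then agb1 leaves with EtOH at 6.15 ± 0.74 and WT leaves with EtOH at 6.89 ± 0.35. In this order 2 of the 15 neighbouring pairs had no overlapping arrays, above the third group and above WT leaves with ABA.

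AT1G30700 spanned 3.54, between agb1gpa1 leaves with EtOH at 5.64 ± 0.89 and agb1 guard cells with ABA at 9.18 ± 0.38, and all 15 neighbouring pairs overlapped. Its gpa1 guard cells stood among the leaf groups near the low end, at 5.92 ± 0.15 with EtOH and 6.60 ± 0.23 with ABA. AT1G26380 spanned 4.47, between agb1gpa1 leaves with ABA at 4.82 ± 0.33 and WT guard cells with EtOH at 9.30 ± 0.39. The other 7 leaf groups and both gpa1 guard cell groups of AT1G26380, between 5.35 and 7.25, overlapped with their neighbours, and the 1 pair without overlap was agb1gpa1 guard cells with ABA, at 8.27 ± 0.17, below agb1 guard cells with ABA, at 8.94 ± 0.28.

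The probe sets with the most similar pattern to each gene over the 48 arrays were looked up among those tied to a single gene. For AT1G26380 they were those of AT3G09010 (r = 0.892), Hsp70-2 (r = 0.873) and AT1G77500 (r = 0.863). For AT1G30700 they were those of MMP, a matrix metalloproteinase, at r = 0.811, AT4G20460 (r = 0.795) and AT1G51920 (r = 0.792). The correlation with MMP was 0.945 in guard cells and 0.488 in leaves. With AT4G20460 it was 0.729 and 0.826, and with AT1G51920 it was 0.751 and 0.669. For AT1G63750 the correlations over the 48 arrays were lower, at 0.643 for AT2G41890, 0.625 for AT4G12490 and 0.615 for AT5G65440. Within leaves they were 0.832, 0.648 and 0.770, and within guard cells 0.603, 0.597 and 0.351. For the probe sets listed with AT1G26380 they were 0.753, 0.804 and 0.715 in leaves and 0.734, 0.668 and 0.530 in guard cells. The arrays share groups and tissues, so these values describe likeness of pattern over these 48 arrays.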

How the data were processed

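The deposited values were log2 expression values per probe set of ATH1 arrays, made by the authors with RMA in the affy package, per the submitters' processing notes, which give no versions; the genome build is not given in the sources used here. After 64 control probe sets were left out, 22746 were analysed, of which 13513 were tied to 1 gene, 503 to several and 8730 to none in the platform annotation; only the first kind was named. GPA1 and AGB1 were not analysed here. Sequences were not used here, and whether a probe set also detects close relatives of its gene was not tested.

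Tests used limma 3.58.1 in R 4.3.3: 1 mean per group, default eBayes, Benjamini-Hochberg adjustment over all 22746, called at an adjusted p under 0.05. Comparisons within a tissue used its 24 arrays and those between tissues all 48, in 17 comparisons. The procedure was tested on simulated data. The labels do not say whether replicates were grown apart, so p-values measure the spread between these samples, and the number of arrays limits the precision.

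The 3 genes and the gene lists (27 berberine bridge and 60 TIR-class genes, others, and cell type markers) were chosen with earlier results of these data known. A gene counted as measured where a probe set was tied to it alone, and the rest may have probe sets without this link. Of the smaller lists, 1 of 8 relay genes, 4 of 15 pattern-triggered immunity genes and 0 of 15 salicylate genes were measured in this sense. So were 1 of 10 camalexin and indole genes (AT1G26380), 1 of 10 G protein genes and 5 of 11 ABA response genes. Genes of the lists were named where they were among the 4 called genes with the largest change in ABA minus EtOH in WT leaves; AT1G57630, AT1G26390, AT1G26420 and AT1G66090 were named after their values were seen. Alternatives were another variance prior, only the arrays compared, median centring, quantile normalization, a filter on dim probe sets (mean log2 above 5), a replicate block and leaving out single arrays.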

Additional observations from a re-analysis of the deposited data

Results flagged for a closer look

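The ABA response of AT1G63750 in WT differed between the tissues by the test of the difference itself. The leaf response minus the guard cell response was -1.75 on the log2 scale (limma adjusted p = 0.00132), from an ABA minus EtOH difference of -1.86 in leaves and -0.11 in guard cells, and the gene was lower with ABA than every EtOH array in 3 of 3 leaf arrays. The WT leaf arrays with EtOH also stood in the gpa1 minus WT difference that may have been part of the choice of the gene, so this test is not fully independent of that choice.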

How the results depend on the processing

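Each of the 51 results, 3 genes in 17 comparisons, stayed on its side of the threshold with another variance prior, median centring, quantile normalization, the filter on dim probe sets and the replicate block; 3 uncalled differences changed sign with centring and 1 with quantile normalization. Deviations of same-numbered samples correlated at -0.541 to 0.661 in leaves (median -0.017, with 33.3% of pairs over 0.1) and -0.287 to 0.644 in guard cells (median 0.097, with 48.8% over 0.1, against a median of -0.047 for other numbers). Not every pair lay over 0.1. The main fits did not take the numbers as pairs, although same-numbered guard cell samples had the higher median. Whether same-numbered samples shared a batch was not tested. With the replicate block, probe sets called for ABA in guard cells numbered 5086 in place of 4585 in WT, 4020 in place of 3571 in agb1 and 4163 in place of 3695 in agb1gpa1. With the replicate block AT1G63750 in WT leaves still differed by -1.86 with ABA. With only the arrays compared, 3 calls were lost: AT1G63750 with ABA in agb1 leaves (-1.29, adjusted p = 0.119), and AT1G30700 between tissues in WT (1.95, 0.0997) and agb1gpa1 (1.83, 0.0597). The cause was not tested. Without single arrays those results ranged over -1.71 to -1.04, 1.32 to 2.86 and 1.14 to 2.34, and AT1G30700 with ABA in WT leaves over 0.20 to 1.74. With only the arrays compared, called probe sets numbered 1557 in place of 3303 for ABA in agb1 leaves, 1358 in place of 2311 in agb1gpa1 leaves, 3017 in place of 4585 in WT guard cells, and 1 in place of 3 for agb1gpa1 minus agb1 in guard cells with EtOH. For agb1gpa1 minus agb1 in leaves with EtOH the count was 2 in place of 1 with another variance prior or the dim filter. Centring moved the split of WT leaf calls with ABA to 9231 higher and 3821 lower, in place of 3848 and 4964, and that of WT guard cells minus leaves to 8100 and 4122, in place of 4548 and 5043. In agb1 leaves with ABA centring gave 1962 and 1281 in place of 1576 and 1727, and in agb1gpa1 leaves 1379 and 829 in place of 1157 and 1154. With 3 arrays a group, the 95% interval of AT1G30700 for agb1gpa1 minus agb1 in guard cells with EtOH ran from -2.14 to -0.18.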

Other observations

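Few listed immune genes outside both families had a probe set tied to 1 gene in the annotation used. The others were not looked at, which says nothing about their levels. Of the 4 measured genes of the pattern-triggered immunity list, 2 were higher and 2 lower in guard cells than in leaves of WT with EtOH. Their differences ran from -2.58 to 3.28. Among them BIK1, a kinase that acts below cell surface immune receptors, was higher by 1.06 (limma adjusted p = 0.000159). WRKY53, a transcription factor, was lower by 1.42 (limma adjusted p = 0.00324). Of all probe sets 20% were called higher and 22.2% lower in that comparison. With ABA in WT leaves 2 of the 4 were lower, WRKY53 by 0.73 and BIK1 by 0.66 (limma adjusted p = 0.0243 and 0.0402), and 2 did not pass, where 21.8% of all probe sets were called lower. In WT guard cells 1 of the 4 was lower with ABA and 3 did not pass, where 11.6% were called lower. None of the 4 was called by limma in agb1gpa1 minus agb1 in either tissue with either treatment, and 0 had an unadjusted p under 0.05. On the ABA response list, 4 of 5 measured genes were higher with ABA in WT leaves and 5 of 5 in WT guard cells, with median differences of 2.18 and 4.25, where 16.9% and 8.55% of all probe sets were called higher. The 1 measured gene of the G protein list, PRN, was higher with ABA by 1.21 in WT leaves and by 2.86 in WT guard cells, both called by limma.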
